A study of Mus musculus with 8 samples.

Results

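The 31 genes described here make, sense, take up, export, convert or store cholesterol, and they were measured in bulk RNA-seq libraries of mouse brain. They were chosen by gene symbol from the 54532 genes of the deposited tables: 18 enzymes between acetyl-CoA and cholesterol, 5 genes of the sterol-sensing machinery, 2 genes of intracellular transport and receptor turnover, 4 genes of sterol export and its control, and 2 genes of turnover and storage. The 4 groups, of 2 libraries each, were CAA mice under chronic restraint stress, CAA mice under mock treatment, WT mice under chronic restraint stress and WT mice under mock treatment. CAA is the label given to mice that model cerebral amyloid angiopathy, in which amyloid collects in the walls of brain vessels. The animals were perfused with PBS before RNA was taken from the brain, and the study asked how chronic stress worsens brain injury in this model. The labels do not name the transgene or strain behind CAA, the age of the animals or the piece of brain used. No label states that the 2 libraries of a group came from separate animals. Sex-linked RNAs, given below, place the 2 libraries of CAA stress and of WT mock in different animals. For the other groups this is open, so p-values measure the spread between these libraries.

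The brain makes nearly all of its cholesterol itself, because lipoproteins of the blood do not cross the blood-brain barrier. When sterols in the endoplasmic reticulum run low, SCAP escorts the SREBP transcription factors to the Golgi for cleavage and the freed fragments switch on the synthesis enzymes, while the INSIG proteins hold SCAP back when sterols are plentiful. Excess sterol acts the other way through the liver X receptors, which switch on the ABC transporters that pass cholesterol to apolipoprotein E particles, and neurons convert cholesterol to 24S-hydroxycholesterol, which leaves the brain. Oligodendrocytes and astrocytes carry most of the synthesis, oligodendrocytes for myelin.

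Libraries held 17275201 to 18894657 counts, and the 31 genes together took between 0.164% (WT stress 2) and 0.191% (CAA stress 2) of them. All 31 passed the filter on low counts that left 17182 genes for testing. The libraries were not alike in the tissue or animals they came from. CAA stress 1 and WT mock 1 had 3340 and 4575 counts of Xist and none of 4 Y-linked genes, against 0 to 24 counts of Xist in the other 6 libraries, which all held the Y-linked RNAs. The summed level of 10 striatal marker genes was 240 CPM (counts scaled to library size) in CAA mock 2 and 274 CPM in WT mock 1, against 957 to 1713 CPM in the other 6 libraries, and 9 choroid plexus markers summed to 434 CPM in CAA stress 1 and 540 CPM in WT stress 2, against 18.9 to 199 CPM elsewhere. In bulk tissue, fewer cells of a type and less RNA per cell cannot be told apart.

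Promoter windows of 250 bases before to 50 after the transcription start (RefSeq, build GRCm38.p6) were at hand for 26 of the 31 genes, 35 windows in all. They are shown because the SREBPs act on these enzymes together with NF-Y, which binds CCAAT, and because the liver X receptors act on direct repeats spaced by 4 bases. The letters CCAAT, searched on both strands, stood in 22 of the 35 windows (62.9%), against 37.4% of all 32851 windows. Counted by gene, they stood in 14 of the 15 enzyme genes with a window (not Acat2). The share of all windows is no background for that count, since 6 of the 26 genes had more than 1 window. The sterol regulatory element written as TCACNCCAC stood in 1 of the 35 windows (2.86%), in Hmgcs1, against 1.24% of all windows. The same letters with an A in front, a longer form that contains this element, stood in none (0.234% of all windows). The repeat AGGTCA, 4 bases of any kind, AGGTCA, searched on both strands like the others, stood in no window of these genes (0.0152% of all). A looser form that contains it, GGTNA, 5 bases of any kind, GGTCA, stood in 2 of the 35 windows (5.71%), in Abca1 and Srebf1 (0.207% of all). A match is a run of letters and not a measured site. In the 4 enzyme windows printed first, capitals mark CCAAT or its reverse complement ATTGG and, in Hmgcs1, also TCACCCCAC; in the windows of Abca1 and Srebf1 they mark the reverse complement of the looser repeat alone. The windows lie at chr13:119690101-119690400, plus strand; chr13:8885356-8885655, plus strand; chr5:4104648-4104947, minus strand; chr8:64733529-64733828, minus strand; chr4:53159846-53160145, minus strand; and chr11:60210422-60210721, minus strand.
Hmgcs1: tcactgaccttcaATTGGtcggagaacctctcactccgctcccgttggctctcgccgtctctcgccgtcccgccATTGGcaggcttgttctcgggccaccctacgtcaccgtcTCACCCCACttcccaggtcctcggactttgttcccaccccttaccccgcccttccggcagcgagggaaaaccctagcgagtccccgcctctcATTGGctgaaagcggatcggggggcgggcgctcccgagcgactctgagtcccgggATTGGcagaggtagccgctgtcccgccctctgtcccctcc
Idi1: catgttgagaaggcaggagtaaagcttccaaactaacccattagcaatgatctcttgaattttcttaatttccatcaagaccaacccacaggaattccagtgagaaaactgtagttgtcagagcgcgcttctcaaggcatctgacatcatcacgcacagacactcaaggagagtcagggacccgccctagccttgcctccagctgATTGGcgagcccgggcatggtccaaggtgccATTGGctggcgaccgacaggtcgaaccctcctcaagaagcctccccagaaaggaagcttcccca
Cyp51: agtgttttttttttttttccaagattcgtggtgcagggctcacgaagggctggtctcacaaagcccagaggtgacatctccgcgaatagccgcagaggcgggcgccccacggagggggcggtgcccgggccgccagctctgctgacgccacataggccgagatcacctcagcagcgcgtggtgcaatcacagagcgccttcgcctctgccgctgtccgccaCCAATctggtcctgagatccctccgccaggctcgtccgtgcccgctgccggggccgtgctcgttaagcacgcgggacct
Msmo1: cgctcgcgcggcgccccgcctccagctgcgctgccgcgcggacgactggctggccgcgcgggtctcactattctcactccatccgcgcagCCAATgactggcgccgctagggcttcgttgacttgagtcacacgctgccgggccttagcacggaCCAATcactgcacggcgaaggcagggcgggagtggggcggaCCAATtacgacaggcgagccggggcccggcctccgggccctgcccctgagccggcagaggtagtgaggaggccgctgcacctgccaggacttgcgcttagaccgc
Abca1: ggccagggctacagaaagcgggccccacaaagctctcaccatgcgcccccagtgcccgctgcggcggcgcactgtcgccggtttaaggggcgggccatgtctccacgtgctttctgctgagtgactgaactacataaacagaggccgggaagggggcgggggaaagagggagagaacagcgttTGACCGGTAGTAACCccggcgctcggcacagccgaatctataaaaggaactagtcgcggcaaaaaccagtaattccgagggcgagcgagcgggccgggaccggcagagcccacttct
Srebf1: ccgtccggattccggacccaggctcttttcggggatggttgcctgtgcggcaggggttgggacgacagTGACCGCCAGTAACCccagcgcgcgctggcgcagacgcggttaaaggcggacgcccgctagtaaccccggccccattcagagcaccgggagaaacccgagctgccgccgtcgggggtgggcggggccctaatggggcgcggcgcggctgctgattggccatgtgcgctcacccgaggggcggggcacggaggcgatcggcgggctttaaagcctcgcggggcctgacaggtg

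By FPKM, the authors' count scaled by gene length and library size, which allows levels of different genes to be compared, the cholesterol genes of highest mean level over the 8 libraries were Hmgcs1 (47.5 FPKM), the synthase of HMG-CoA, and Cyp46a1 (45.2 FPKM), the neuronal cholesterol 24-hydroxylase. They stood at the 94.2nd and 93.9th percentile of tested genes. Srebf2 (33.4 FPKM), which encodes the SREBP that favours cholesterol genes, Insig1 (27.2 FPKM), Fdft1 (22.3 FPKM), the squalene synthase, and Cyp51 (19.9 FPKM), the lanosterol demethylase, followed. At the low end were Lss (2.68 FPKM), the lanosterol synthase, Tm7sf2 (2.36 FPKM), a sterol reductase, Nr1h3 (1.32 FPKM), which encodes liver X receptor alpha, and Fdps (0.157 FPKM), the farnesyl diphosphate synthase. Of the 30 neighbouring pairs in this order only 2 did not overlap over the 8 libraries, Stard4 above Abca1 and Nr1h3 above Fdps.

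Fdps was listed with 5 to 22 counts a library, while its copy Gm3571 had 46 to 75. In the annotation, 26.2% of the 50-base runs in Fdps exons also occur in other genes, 8 of them, so its counts are uncertain and its fold changes are given with that limit. Runs shared with other genes made up 39.1% of Acat2 (shared with Acat3 and Tcp1), 26.5% of Fdft1, 25.3% of Idi1 and 11.6% of Hmgcs1. Exon bases overlapped by a neighbouring gene made up 26.7% of Fdps, 18.3% of Fdft1, 13.2% of Scap, and 12.1% each of Hmgcs1 and Tm7sf2. The use of strand in counting is not stated.

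The coefficient of variation of FPKM over the 8 libraries had a median of 13.4% for the 31 genes and 18.4% for all tested genes, and 7 of the 31 lay above the median of all tested genes. This comparison was not matched for level, and most of the 31 genes stood above the middle of tested genes by mean FPKM. Lss (4.398%) and Fdft1 (4.92%) varied least. Apart from Fdps, the widest spread was in Idi1 (30.6%), the isopentenyl diphosphate isomerase, with 2.39-fold between its lowest and highest library, Nr1h3 (24.9%, 2.62-fold) and Srebf1 (21.5%, 2.06-fold), which encodes the SREBP that favours fatty acid genes.

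**Figure D1:**
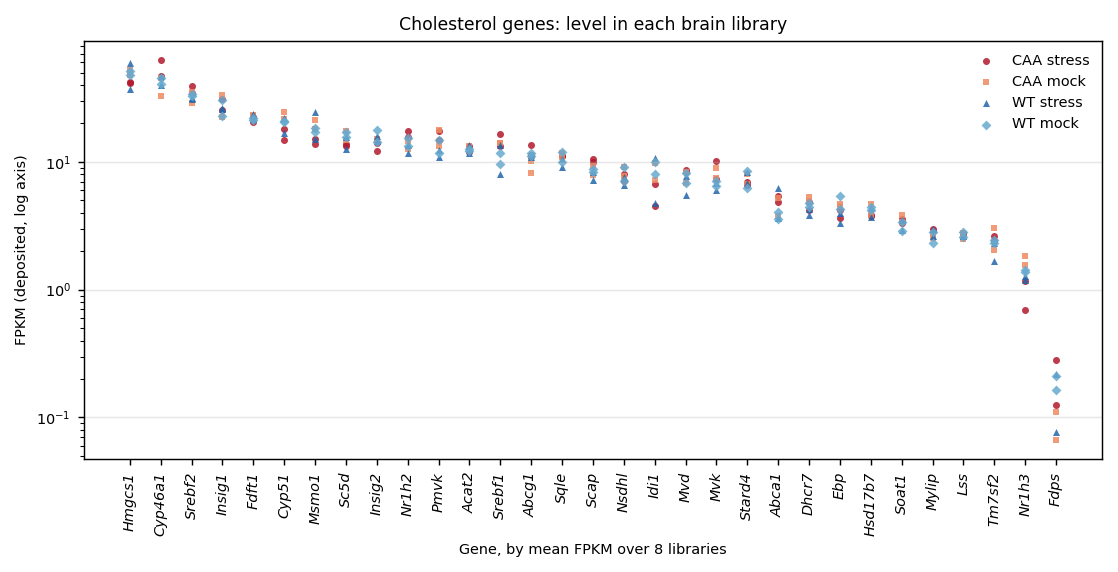
FPKM of the 31 cholesterol genes in each library on a log axis, with 2 points for each of the 4 groups. Genes run from the highest to the lowest mean FPKM over the 8 libraries. The levels run from 0.157 FPKM on average for Fdps to 47.5 FPKM for Hmgcs1, with Fdps apart from the rest at the low end.

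No gene of the 31 passed an adjusted p of 0.05 in any of the 8 tests made with edgeR's quasi-likelihood model (CAA against WT and stress against mock, averaged and within each group, their interaction, and any difference among the 4 groups), and none did with DESeq2 or limma. The background was low as well: edgeR called 0.0116% of all tested genes for the averaged CAA comparison, for CAA under mock, for CAA under stress and for any difference among the groups, and 0% for the averaged stress comparison, for stress in WT, for stress in CAA and for the interaction. DESeq2 called more genes, 0.364% for CAA averaged, 0.0102% for stress averaged, 0.13% for CAA under mock, 0.0817% for CAA under stress, 0% for stress in WT, 0.0802% for stress in CAA, 0.0034% for the interaction and 0.3% for any difference, and again none of the 31. The members below are therefore described by their levels, their fold changes and the precision of these. Log2 fold changes are those of the edgeR model, CAA minus WT or stress minus mock, with standard errors worked back from its F statistic.

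Under stress, averaged over both genotypes, 14 of the 18 synthesis enzymes had a lower level than under mock, with a median log2 fold change of -0.13, whereas 9 of the 13 regulators and transporters had a higher one, with a median of 0.06; over all tested genes 49.4% were lower. None of these differences passed the test. All 8 enzymes of the last stretch, from lanosterol to cholesterol, were lower (-0.32 to -0.12, median -0.17), while Acat2, Mvk, Lss and Fdps were the 4 enzymes that were not. Without WT stress 2 the enzymes lower numbered 12, with a median of -0.05, and over the other alternatives 13 to 16. The median was -0.20 without WT stress 1, -0.07 without the choroid plexus-rich pair and -0.08 without the low-striatum pair. Both genotypes showed the lower value in 10 of the 18 enzymes, against 25.6% of all tested genes and 2 of the 13 other members. With single libraries, or the pairs that stand apart in sex or region markers, left out, this count ran from 8 to 12.

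**Figure D2:**
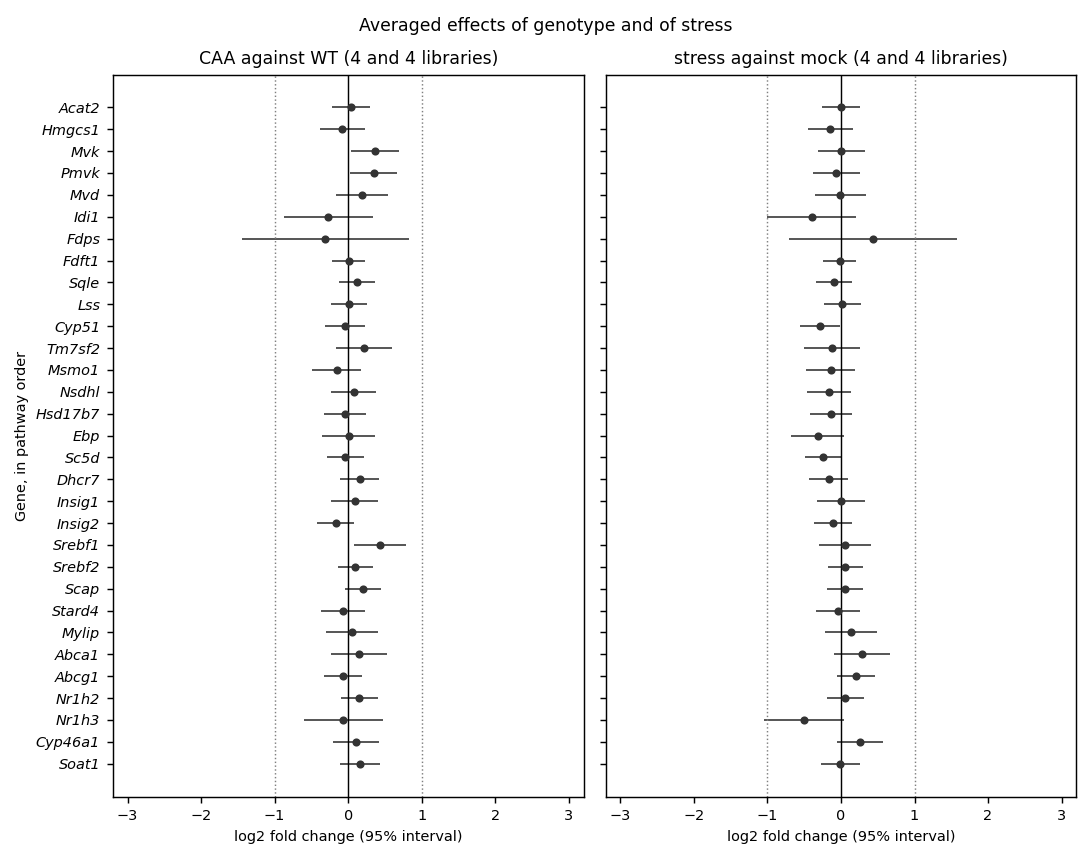
Log2 fold change with its 95% interval for each cholesterol gene in pathway order, CAA against WT on the left and stress against mock on the right (4 and 4 libraries each), with dotted lines at a 2-fold difference. The 8 enzymes from lanosterol to cholesterol sit below 0 in the stress panel, and Fdps has the widest interval in both.

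Among the late enzymes Cyp51 (chr5:4081145-4104746, minus strand, mm10), which removes a methyl group from lanosterol, had 18.2 and 14.8 FPKM in CAA stress, 21.5 and 24.5 FPKM in CAA mock, 22.1 and 16.9 FPKM in WT stress, and 21.0 and 20.4 FPKM in WT mock. The CAA stress libraries lay below both CAA mock libraries, whereas the WT stress libraries lay on either side of WT mock. The average was 18 ± 3.09 FPKM under stress and 21.9 ± 1.82 FPKM under mock (SD, n = 4 libraries each), and the log2 fold change was -0.28 ± 0.12 (edgeR adjusted p = 0.920). It had the smallest unadjusted p of the 31 genes here, 0.045, and was the 1 member of 31 under 0.05, against 3.82% of all tested genes. Within CAA its log2 fold change was -0.48 ± 0.18 (edgeR adjusted p = 0.696).

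Sc5d, the desaturase of the penultimate steps, had 13.7 and 13.4 FPKM in CAA stress, 14.9 and 17.5 FPKM in CAA mock, 15.6 and 12.6 FPKM in WT stress, and 15.8 and 17.2 FPKM in WT mock. In each genotype both stress libraries were below both mock libraries, and the log2 fold change was -0.25 ± 0.16 in CAA and -0.23 ± 0.16 in WT. Averaged over genotype it stood at 13.8 ± 1.24 FPKM under stress and 16.4 ± 1.24 FPKM under mock (SD, n = 4), with a log2 fold change of -0.24 ± 0.11 and an edgeR adjusted p of 0.920. Ebp, the sterol isomerase that binds emopamil, had 4.19 and 3.62 FPKM in CAA stress, 4.71 and 4.53 FPKM in CAA mock, 4.01 and 3.35 FPKM in WT stress, and 5.44 and 4.29 FPKM in WT mock. All 4 stress libraries lay below all 4 mock libraries, and the log2 fold change was -0.32 ± 0.16 (edgeR adjusted p = 0.920). Ebp and Nr1h3 were the 2 members whose stress and mock libraries did not overlap, both lower; 0.896% of all tested genes were separated in that direction, 0.902% in the other and 1.8% in either.

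Msmo1, the methylsterol oxidase that acts after Cyp51, had 15.03 and 13.9 FPKM in CAA stress, 17.97 and 21.4 FPKM in CAA mock, 24.6 and 15.04 FPKM in WT stress, and 17.2 and 18.5 FPKM in WT mock. The WT stress group held both its highest library and one of its lower ones. Its log2 fold change for stress was -0.44 ± 0.21 in CAA and 0.15 ± 0.21 in WT. Nsdhl, Hsd17b7 and Tm7sf2, which finish the removal of the methyl groups and reduce a double bond, ranged from 6.65 to 9.13, from 3.71 to 4.72 and from 1.68 to 3.04 FPKM over the 8 libraries. Dhcr7, which makes cholesterol from 7-dehydrocholesterol, had 4.24 and 4.87 FPKM in CAA stress, 4.90 and 5.32 FPKM in CAA mock, 4.30 and 3.83 FPKM in WT stress, and 4.77 and 4.43 FPKM in WT mock. Its stress libraries were below its mock libraries within each genotype, though not across genotypes.

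Of the early enzymes Hmgcs1 had 41.6 and 42.5 FPKM in CAA stress, 52.8 and 48.0 FPKM in CAA mock, 59.0 and 37.4 FPKM in WT stress, and 47.5 and 51.0 FPKM in WT mock. Idi1 had 6.76 and 4.50 FPKM in CAA stress, 7.18 and 9.81 FPKM in CAA mock, 10.8 and 4.79 FPKM in WT stress, and 7.98 and 9.998 FPKM in WT mock. For both genes the CAA stress libraries lay below the CAA mock libraries, and the highest of the 8 libraries was WT stress 1. The log2 fold change for stress in CAA was -0.26 ± 0.20 for Hmgcs1 and -0.59 ± 0.37 for Idi1. Acat2, which joins acetyl-CoA units, held between 11.7 and 13.6 FPKM, and the mevalonate enzyme Mvd, which makes isopentenyl diphosphate, between 5.52 and 8.66 FPKM, both with overlapping stress and mock groups in each genotype. The squalene epoxidase Sqle ranged from 9.07 to 11.99 FPKM, Fdft1 from 20.5 to 23.9 FPKM and Lss from 2.49 to 2.84 FPKM.

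The 2 WT stress libraries differed in most of the enzymes. WT stress 2 had the lowest FPKM of all 8 libraries in 10 of the 18 enzymes but in none of the 13 other members, and only 2 enzymes there were above their own mean over libraries. WT stress 1 was the higher of the pair in 15 of the 18 enzymes, while in the other groups the first library was the higher in 9 or 10 of 18. The largest ratio between the pair, apart from Fdps, was 2.25-fold, in Idi1. The mean of the 18 enzymes on the centred log2 scale was 0.03 and -0.08 in CAA stress, 0.08 and 0.07 in CAA mock, 0.03 and -0.21 in WT stress, and 0.05 and 0.04 in WT mock.

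**Figure D3:**
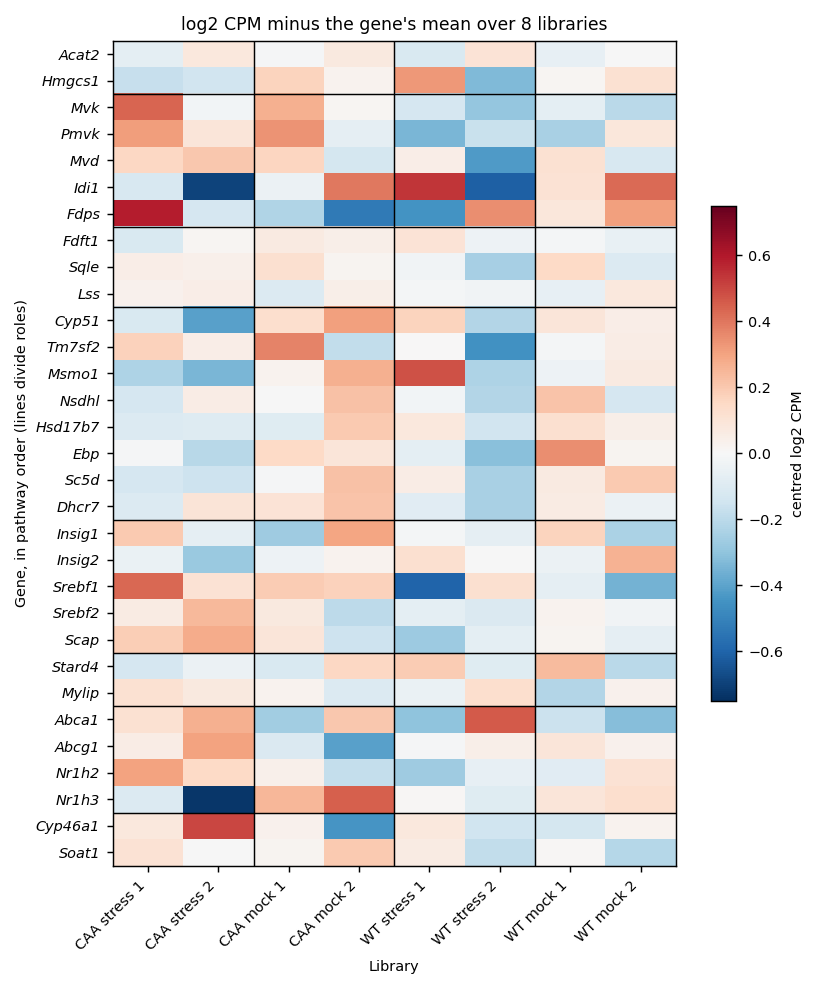
Heat map of log2 CPM minus the gene's mean over the 8 libraries, genes in pathway order and libraries in columns, CAA stress, CAA mock, WT stress and WT mock from left to right. WT stress 2 is below the mean in 16 of the 18 enzymes, and CAA mock 2 is above it in 14.

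Markers of astrocytes and oligodendrocytes, the glial cells that make most of the cholesterol, also had lower values under stress, none past edgeR's test. Of 8 astrocyte markers none was higher under stress on average (median log2 fold change -0.36), and their summed level was 5690 to 6488 CPM in CAA stress, 6764 to 7629 CPM in CAA mock, 5505 to 6683 CPM in WT stress, and 6868 to 6891 CPM in WT mock. Of 12 oligodendrocyte markers none was higher either (median -0.38), though their sums overlapped, at 6611 to 14790 CPM in CAA stress, 9860 to 16305 CPM in CAA mock, 6211 to 9258 CPM in WT stress, and 7685 to 9916 CPM in WT mock. By library, mean centred log2 CPM of oligodendrocyte markers and of the 8 last enzymes differed in sign in some libraries. These were CAA stress 1 (0.44 and -0.08), WT stress 1 (-0.43 and 0.08) and WT mock 2 (-0.23 and 0.03). In the rest the signs were the same. Astrocyte markers differed in sign from these enzymes in CAA stress 1 (0.15) and WT stress 1 (-0.17) only. Of 8 microglia markers none was higher (median -0.25). Markers of oligodendrocyte precursors and new oligodendrocytes were divided, with 3 of 8 higher (median -0.10). Of 9 neuron markers 6 were higher (median 0.15), with sums of 6251 to 8392 CPM in CAA stress, 6600 to 7084 CPM in CAA mock, 8062 to 8344 CPM in WT stress, and 7579 to 7949 CPM in WT mock. No oligodendrocyte, astrocyte or neuron marker was at 0 in any library. Markers of brain regions differed more, and were higher. Under stress on average, 10 of 10 striatal markers were higher (median 0.66), 8 of 8 hypothalamic ones (median 0.80), 5 of 5 of the olfactory bulb (median 1.38) and 8 of 9 of the choroid plexus (median 1.22), none past the test. The low-striatum libraries, CAA mock 2 and WT mock 1, are both from mock groups. Hypothalamic markers summed to 111 to 140 CPM in CAA stress, 3.002 to 90.01 CPM in CAA mock, 24.2 to 28.7 CPM in WT stress, and 1.85 to 41.4 CPM in WT mock. Olfactory bulb markers summed to 12.4 to 54.6 CPM in CAA stress, 7.53 to 10.4 CPM in CAA mock, 74.7 to 75 CPM in WT stress, and 5.61 to 69.0 CPM in WT mock. The part of cell makeup and of the region sampled in the lower enzyme levels was not tested.

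**Figure D4:**
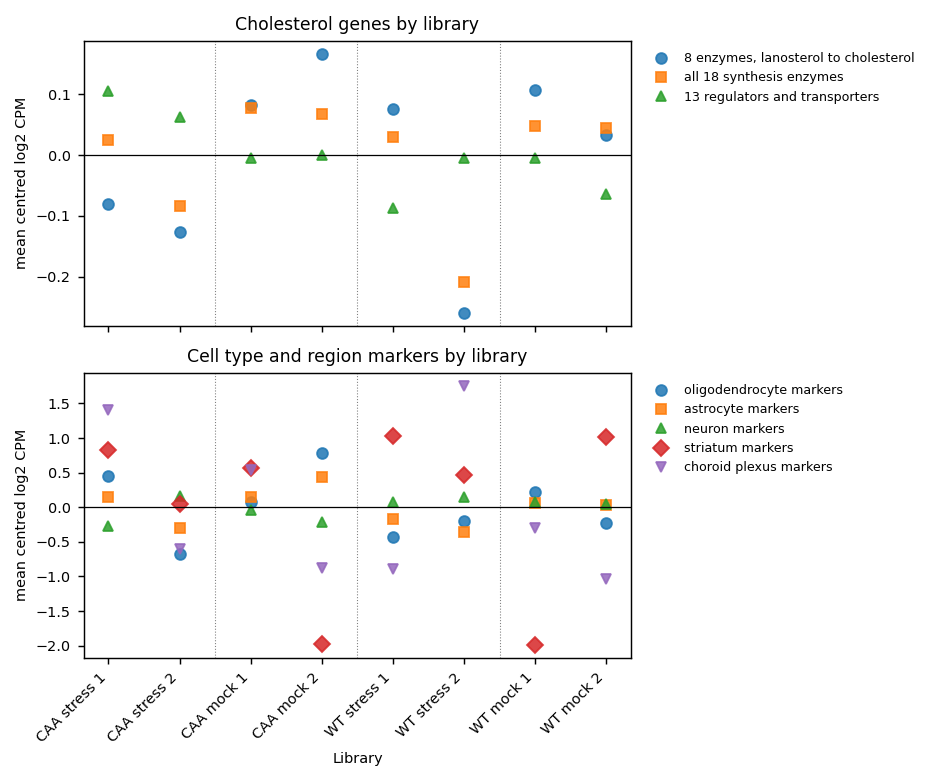
Mean centred log2 CPM by library of the 18 enzymes, of the 8 last enzymes and of the 13 regulators and transporters (top) and of 5 marker lists (bottom). The last 8 enzymes are lowest in WT stress 2 (-0.26) and highest in CAA mock 2 (0.17), and striatal markers stand at -1.97 in CAA mock 2 and -1.99 in WT mock 1.

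Within CAA mice, stress against mock separated the 2 and 2 libraries in 17 of the 31 genes, 11 lower and 6 higher, against 37.4% of all tested genes (19.4% lower and 18% higher). Of the 18 enzymes 9 were separated and lower (Hmgcs1, Idi1, Fdft1, Cyp51, Msmo1, Hsd17b7, Ebp, Sc5d and Dhcr7) and 1, Fdps, was separated and higher. The other 2 lower genes were Insig2 and Nr1h3, and the other 5 higher ones were Scap, Mylip, Abcg1, Nr1h2 and Cyp46a1. Counted by the sign of the log2 fold change, 13 of 18 enzymes were lower (median -0.13, or -0.06 without CAA stress 1, alone or with either pair that holds it) and 9 of 13 other members higher (median 0.14). A total of 4 members had an unadjusted p under 0.05 here, against 6.94% of all tested genes, and none an adjusted one. With 2 libraries against 2, an exact permutation test of a single gene cannot give a p below 0.333.

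Cyp46a1, through which neurons dispose of cholesterol, had 47.0 and 63.0 FPKM in CAA stress, 45.7 and 32.9 FPKM in CAA mock, 47.1 and 40.1 FPKM in WT stress, and 40.7 and 45.4 FPKM in WT mock. Its highest and lowest libraries were both from CAA mice, CAA stress 2 and CAA mock 2. The log2 fold change for stress in CAA was 0.49 ± 0.20 (edgeR adjusted p = 0.696), and in WT 0.02 ± 0.20. The value in CAA was 0.26 without CAA stress 2, 0.27 without CAA mock 2 and 0.75 without CAA mock 1. The neuron marker sum was 8392 CPM in CAA stress 2 and 6600 CPM in CAA mock 2, the highest and second lowest of 8. The lowest sum, 6251 CPM, was in CAA stress 1, which had 47.0 FPKM of Cyp46a1. WT stress 2 had the second highest sum, 8344 CPM, with 40.1 FPKM of Cyp46a1. What part the neuron sum had in the level of Cyp46a1 was not tested. Soat1, which esterifies cholesterol for storage, ranged from 2.89 to 3.85 FPKM with overlapping stress and mock groups in both genotypes.

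Among the export genes Abcg1 (chr17:31057698-31115777, plus strand, mm10), a transporter that passes cholesterol to lipoproteins, had 11.3 and 13.5 FPKM in CAA stress, 10.1 and 8.24 FPKM in CAA mock, 10.9 and 11.3 FPKM in WT stress, and 11.6 and 11.2 FPKM in WT mock. The CAA mock libraries were the lowest and the CAA stress group held the highest, while the WT groups overlapped. Its log2 fold change for stress in CAA was 0.44 ± 0.17 (edgeR adjusted p = 0.696) and in WT -0.04 ± 0.17. Abca1, the transporter that loads apolipoproteins with cholesterol, had 4.86 and 5.41 FPKM in CAA stress, 3.74 and 5.19 FPKM in CAA mock, 3.64 and 6.21 FPKM in WT stress, and 4.02 and 3.59 FPKM in WT mock. Its groups overlapped, and WT stress 2 alone set the direction in WT, where the log2 fold change was 0.37 ± 0.24 (edgeR adjusted p = 0.9999) with that library and -0.06 without it.

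The 2 liver X receptors, which switch on the export genes, had log2 fold changes of opposite sign for stress in CAA, neither past the test. Nr1h3 (chr2:91184061-91202834, minus strand, mm10) had 1.18 and 0.695 FPKM in CAA stress, 1.56 and 1.82 FPKM in CAA mock, 1.29 and 1.19 FPKM in WT stress, and 1.38 and 1.42 FPKM in WT mock, on 33 to 82 counts a library. All 4 stress libraries were below all 4 mock libraries, and the log2 fold change was -0.85 ± 0.35 in CAA (edgeR adjusted p = 0.696) and -0.51 ± 0.25 on average (edgeR adjusted p = 0.920). Without CAA stress 2 the value in CAA was -0.52. Nr1h2, which encodes liver X receptor beta, had 17.4 and 15.7 FPKM in CAA stress, 14.5 and 12.5 FPKM in CAA mock, 11.7 and 13.6 FPKM in WT stress, and 13.4 and 15.3 FPKM in WT mock. Both CAA stress libraries were above all others of either genotype, and the log2 fold change against CAA mock was 0.30 ± 0.16 (edgeR adjusted p = 0.696).

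**Figure D5:**
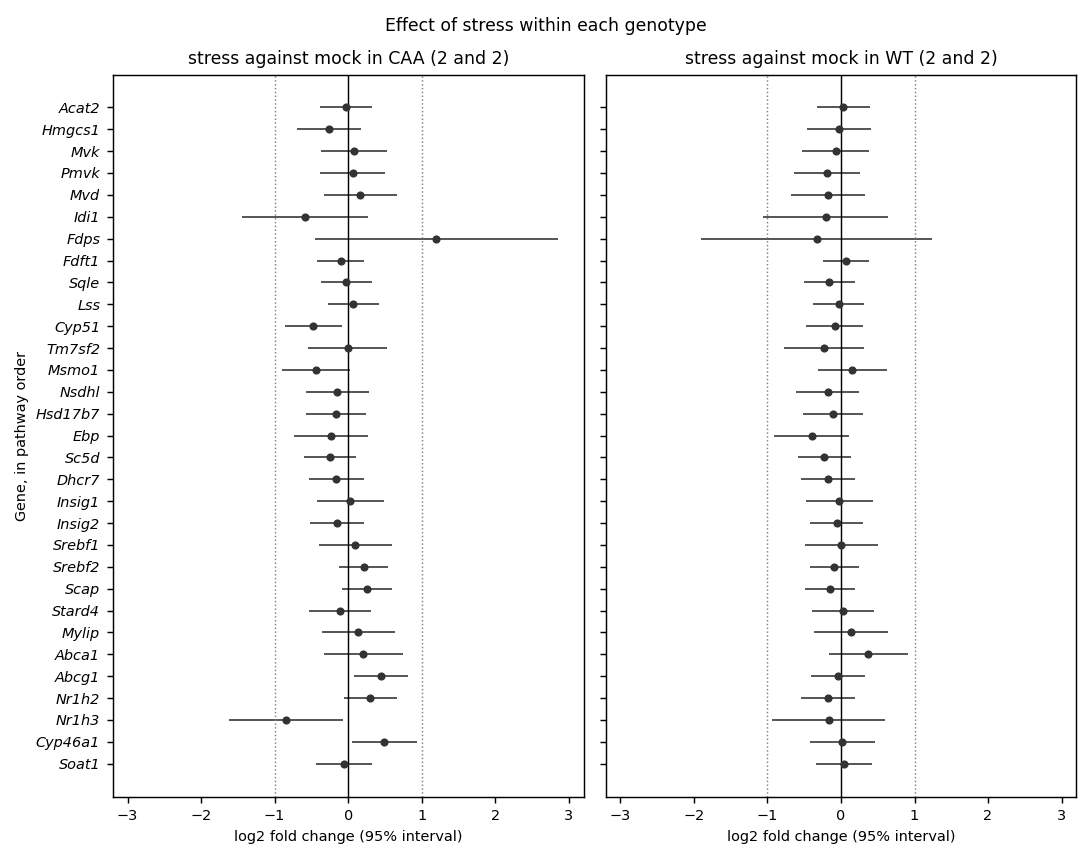
Log2 fold change of stress against mock with its 95% interval for each cholesterol gene in pathway order, within CAA on the left and within WT on the right (2 and 2 libraries each), with dotted lines at a 2-fold difference. Cyp51, Abcg1, Cyp46a1 and Nr1h3 are the 4 genes in CAA whose interval leaves out 0 before adjustment, and no interval in WT leaves it out.

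Within WT mice, stress separated the 2 and 2 libraries in 6 of the 31 genes, all lower, against 26.8% of all tested genes (13.8% lower and 13% higher). They were Ebp, Sc5d, Dhcr7, Srebf2, Scap and Nr1h3. By sign 15 of 18 enzymes were lower, with a median log2 fold change of -0.17. Without WT stress 2 these were 11 of 18 and -0.02, and without the pair of libraries rich in choroid plexus markers, WT stress 2 and CAA stress 1, 12 of 18 and -0.03. The median was -0.27 without WT stress 1 and -0.08 without WT mock 1, the low-striatum pair or the female pair. No gene of the 31 had an unadjusted p under 0.05, against 1.59% of all tested genes. Those with the smallest p were Ebp (-0.40 ± 0.23), Abca1, Sc5d and Nr1h2 (-0.18 ± 0.16), each with an edgeR adjusted p of 0.9999. Leaving out 1 library put Sc5d between -0.39 and -0.08 and Nr1h2 between -0.28 and -0.08, and Ebp was -0.22 without WT mock 1.

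Of the sterol-sensing genes Scap (chr9:110333288-110384950, plus strand, mm10) had 9.92 and 10.6 FPKM in CAA stress, 9.35 and 7.89 FPKM in CAA mock, 7.22 and 8.32 FPKM in WT stress, and 8.87 and 8.35 FPKM in WT mock. Stress libraries were above mock libraries in CAA and below them in WT, the only member of 31 separated in opposite directions, a pattern shown by 4.49% of all tested genes. The interaction, which tests that difference, was 0.40 ± 0.22 on the log2 scale (edgeR adjusted p = 0.995). Srebf2 had 34.6 and 39.3 FPKM in CAA stress, 35.0 and 29.1 FPKM in CAA mock, 31.6 and 30.9 FPKM in WT stress, and 33.9 and 32.6 FPKM in WT mock, with CAA stress 2 highest and CAA mock 2 lowest. Insig1, itself a target of the SREBPs, ranged from 22.4 to 33.2 FPKM, both extremes in CAA mock. Insig2, the second INSIG gene, was at 14.2 and 12.1 FPKM in CAA stress, 14.3 and 14.99 FPKM in CAA mock, 16.0 and 14.7 FPKM in WT stress, and 14.3 and 17.7 FPKM in WT mock.

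For the interaction of genotype and stress the 4 members with the smallest p were Abcg1 (0.48 ± 0.24), Nr1h2 (0.47 ± 0.23), Msmo1 (-0.59 ± 0.30) and Scap, all with an edgeR adjusted p of 0.995. The Msmo1 value was -0.19 without WT stress 1, -0.90 without WT stress 2 and -0.94 without the choroid plexus-rich pair, and without the low-striatum pair Abcg1 was 0.31 and Scap 0.24. Of the 31 genes, none had an unadjusted p under 0.05, against 3.46% of all tested genes. In the test of any difference among the 4 groups the smallest edgeR adjusted p of the members was 0.884, a value that 15 of the 31 shared, and none had an unadjusted p under 0.05 (5.05% of all tested genes).

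In CAA against WT mice, averaged over treatment, 20 of the 31 genes were higher and 11 lower, with a median log2 fold change of 0.06 against 0.0011 over all tested genes, and none passed the test. The enzymes divided 11 higher to 7 lower (median 0.01), which became 2 lower without WT stress 1 and 10 without WT mock 2. The regulators and transporters had 9 of 13 higher (median 0.10). The 3 members with an unadjusted p under 0.05 (background 8.38%) were Srebf1, Mvk and Pmvk, all higher in CAA.

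Srebf1 had 16.7 and 13.3 FPKM in CAA stress, 14.1 and 14.0 FPKM in CAA mock, 8.11 and 13.4 FPKM in WT stress, and 11.8 and 9.68 FPKM in WT mock. The CAA libraries were higher save that WT stress 2 just exceeded CAA stress 2. The averages were 14.5 ± 1.47 FPKM in CAA and 10.8 ± 2.34 FPKM in WT (SD, n = 4), and the log2 fold change was 0.43 ± 0.16 (edgeR adjusted p = 0.578, unadjusted p = 0.0202). Without WT stress 1 it was 0.27, with an adjusted p of 0.965 by edgeR. The gene lies at chr11:60199089-60222581 on the minus strand (mm10).

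The mevalonate kinase Mvk (chr5:114444269-114460591, plus strand, mm10) had 10.1 and 7.31 FPKM in CAA stress, 8.97 and 7.55 FPKM in CAA mock, 6.78 and 6.06 FPKM in WT stress, and 7.05 and 6.45 FPKM in WT mock. All 4 CAA libraries were above all 4 WT libraries, the only member of 31 of which this held, against 2.02% of all tested genes separated and higher, 2.71% separated and lower and 4.73% in either direction. The log2 fold change was 0.37 ± 0.15, with means of 8.48 ± 1.31 FPKM in CAA and 6.58 ± 0.429 FPKM in WT (SD, n = 4; edgeR adjusted p = 0.586). Pmvk, the kinase of the next step, had 17.4 and 14.9 FPKM in CAA stress, 17.8 and 13.4 FPKM in CAA mock, 10.9 and 12.4 FPKM in WT stress, and 11.8 and 14.8 FPKM in WT mock. Its log2 fold change was 0.35 ± 0.15 (edgeR adjusted p = 0.586), and that of Scap was 0.20 ± 0.11 (edgeR adjusted p = 0.641). Mvk was at 0.21 without the choroid plexus-rich pair, and Pmvk at 0.22 without the female pair.

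Under mock treatment, 9 of the 31 genes had separated CAA and WT libraries, 7 higher and 2 lower, against 32.9% of all tested genes (16.3% higher and 16.6% lower). The 7 were Mvk, Fdft1, Cyp51, Dhcr7, Srebf1, Nr1h3 and Soat1, and the 2 lower ones were Fdps and Abcg1. Abcg1 had the smallest p (-0.32 ± 0.17, edgeR adjusted p = 0.998), followed by Srebf1 (0.39 ± 0.23), Fdps (-1.08 ± 0.76, on its 5 to 22 counts) and Mvk (0.29 ± 0.21). Leaving out 1 library put Abcg1 between -0.48 and -0.17, it was -0.14 without the low-striatum pair, and Srebf1 was 0.25 without WT mock 2 and Mvk 0.16 without CAA mock 1. No member had an unadjusted p under 0.05, against 4% of all tested genes. Under stress, 13 of the 31 were separated, 10 higher in CAA and 3 lower, against 39.8% of all tested genes (19.3% higher and 20.5% lower). The higher ones were Mvk, Pmvk, Mvd, Sqle, Lss, Tm7sf2, Srebf2, Scap, Abcg1 and Nr1h2, and the lower ones Msmo1, Insig2 and Nr1h3. The smallest p-values belonged to Scap (0.40 ± 0.16, edgeR adjusted p = 0.579), Nr1h2 (0.39 ± 0.16, adjusted p = 0.580), Pmvk (0.47 ± 0.21, adjusted p = 0.599) and Mvk (0.44 ± 0.21, adjusted p = 0.599), and 3 members had an unadjusted p under 0.05 (background 8.22%). The Mvk value was 0.20 without CAA stress 1 and 0.13 without the choroid plexus-rich pair.

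Oligodendrocyte markers stood beside these differences as well: all 12 were higher in CAA than in WT on average (median 0.38). Their sums overlapped between CAA and WT. Of 8 markers of oligodendrocyte precursors and new oligodendrocytes 7 were higher (median 0.28). These summed to 396 to 543 CPM in CAA stress and 518 to 527 CPM in CAA mock. The WT sums were 325 to 360 CPM under stress and 389 to 390 CPM under mock. Higher values also held for 6 of 8 astrocyte markers (median 0.21), and no marker of these 3 lists passed the test. Of 9 neuron markers 2 were higher (median -0.15), and of 5 endothelial markers none (median -0.25). Region markers differed more: 8 of 8 of the hypothalamus were higher in CAA (median 0.94), 0 of 5 of the olfactory bulb (median -1.97), 1 of 10 of the striatum (median -0.36) and 7 of 9 of the choroid plexus (median 0.23). Their part in the CAA values was not tested. Stard4, which carries cholesterol between membranes, ranged from 6.28 to 8.55 FPKM, and Mylip, a ligase that tags lipoprotein receptors for degradation, from 2.32 to 3.003 FPKM. Neither was among the 4 members with the smallest p in any comparison.

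The precision for single genes can be read from the intervals. The 95% interval of the fold change lay within 2-fold in either direction for 30 of the 31 genes in CAA against WT averaged (all but Fdps) and for 28 in stress against mock averaged (all but Idi1, Fdps and Nr1h3). It did so for 29 in CAA under mock, 28 in CAA under stress, 29 in stress in WT, 28 in stress in CAA, and 25 in the interaction. These intervals are unadjusted. They rest on a spread for each gene that the 4 groups of 2 libraries share, drawn toward that of all tested genes.

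Genes that share the pathway's regulators or cargo were measured beside it, and none passed edgeR's test in either averaged comparison. Of 12 fatty acid synthesis genes 9 were higher in CAA (median 0.13) and 8 lower under stress (median -0.18). Fads2, a fatty acid desaturase, had a log2 fold change of 0.31 ± 0.14 for CAA and -0.29 ± 0.14 for stress, and Elovl6, an elongase, -0.26 ± 0.13 for CAA and -0.24 ± 0.13 for stress. Of 8 partners of SREBP processing 3 were higher in CAA (median -0.05) and 4 higher under stress (median 0.02), with Mbtps1, the Golgi protease that makes the first cut in SREBPs, at 0.17 ± 0.10 for stress and Rnf139, a ubiquitin ligase of the endoplasmic reticulum, at -0.22 ± 0.14 for CAA. Of 18 genes of lipoprotein and intracellular sterol transport 12 were higher in CAA (median 0.14) and 12 higher under stress (median 0.07).

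Apoe, the main apolipoprotein of the brain, ranged from 702 to 1196 FPKM in the 4 CAA libraries and from 504 to 666 FPKM in the 4 WT libraries, with means of 928 ± 234 FPKM in CAA and 591 ± 68.2 FPKM in WT (SD, n = 4), and its log2 fold change was 0.66 ± 0.17 (edgeR adjusted p = 0.508). Lcat, which esterifies cholesterol on lipoproteins, had -0.59 ± 0.32 under stress (edgeR adjusted p = 0.920). Of 9 tested genes of oxysterols and branch pathways 4 were higher in CAA (median -0.04) and 3 under stress (median -0.11). Cyp7b1, which hydroxylates oxysterols, had a log2 fold change of -0.41 ± 0.16 for stress (edgeR adjusted p = 0.920).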

How the data were processed

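Brain RNA was sequenced as Illumina libraries, per the labels. The deposited raw counts per gene come from reads the authors aligned to mm10 with HISAT2 2.0.5 and assigned with featureCounts 1.5.0-p3, per the submitters' processing notes. The deposited FPKM values were derived by the authors from these counts, and their denominators equal DESeq2's scaled library sizes (ratio 1). Chi-square values per degree of freedom between libraries were 8.70 to 73.9, so none repeats another.

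The test was edgeR 4.0.16 (R 4.3.3) on counts: filterByExpr (minimum count 10, minimum total 15; 17182 genes), TMM and a robust quasi-likelihood fit of 4 group means over 8 libraries, with 4 residual degrees of freedom. All p-values are two-sided, with Benjamini-Hochberg adjustment across the tested genes and a threshold of 0.05. The code was tested on simulated data. For each comparison, the 4 members of smallest p are given with their test. Alternatives were DESeq2 1.42.0, limma 3.58.1 on log2(FPKM + 1) and log2(FPKM + 0.1), other filters and scaling, a replicate block and left-out libraries; leaving out the low-striatum, female or choroid plexus-rich pair was chosen after seeing the data. Centred values are log2 CPM with a prior count of 0.5. Runs shared with other genes were counted in GENCODE transcripts. The members and lists were chosen with earlier results of these data known.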

Additional observations from a re-analysis of the deposited data

Results flagged for a closer look

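Scap had stress libraries above mock libraries in CAA mice and below them in WT mice. The difference between the stress effects was 0.40 on the log2 scale (standard error 0.22), and edgeR's interaction test gave an adjusted p of 0.995. In WT the separation was narrow, at 8.32 FPKM in WT stress 2 and 8.35 FPKM in WT mock 2. Without the low-striatum pair the difference between the stress effects was 0.24. No other member of the 31 was separated in opposite directions in the 2 genotypes, against 4.49% of all tested genes.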

How the results depend on the processing

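No member was called under any of the 19 alternatives. The replicate numbers did not pair the samples (correlation of replicate differences between groups -0.29 to 0.11), and with the number as a block the median log2 fold change of the members was 0.059 for CAA and -0.017 for stress, both averaged, with 0 called. Leaving out 1 library at a time, that median ran from -0.075 to 0.0017 for stress averaged, from 0.055 to 0.16 for CAA under stress, from -0.12 to -0.025 for stress in WT and from -0.040 to 0.13 for the interaction. It was -0.034 for stress in WT without the choroid plexus-rich libraries and -0.052 for the interaction without the female libraries. Abca1 for stress in WT ran from -0.063 (without WT stress 2) to 0.70 (without WT stress 1), and was -0.072 without the choroid plexus-rich libraries. Enzymes with a negative interaction numbered 4 without WT stress 1, against 8 with all libraries. Of 520 alternative fold changes of members given with a test, 518, all but these 2 negative Abca1 values, kept their sign, 45 differed from the reported value by over 1.5 times, in 18 of 28 comparisons of a member, and none passed the threshold. Nor did any of 72 adjusted p-values of the test of any difference. The lowest adjusted p, by edgeR, was 0.0593, for Srebf1 in CAA against WT averaged without the filter on low counts. In that setting edgeR called 223 of 29446 genes for this comparison, against 2 of 17182 in the main fit. The causes were not tested. On log2(FPKM + 1), a scale that understates differences of low genes, limma put Fdps at -0.13 for CAA under mock and Nr1h3 at -0.29 for stress averaged. Fdps (5 to 22 counts) and Nr1h3 (33 to 82) had the lowest counts of the members.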
